A study of Mus musculus with 8 samples.

Results

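The mitosis and spindle genes described here are a named list of 54 genes whose products build the spindle, hold and move chromosomes, time anaphase or divide the cell. They were found by gene symbol among the 18194 genes of the arrays, and each gene was read from the brightest of its probe sets, judged by the mean of the 8 arrays. A probe set of its own was present for 53 of them, while Ccnb1 was not analysed here. Of these, 51 passed the filter on low values and were tested, and Plk1 and Melk did not pass it.

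The series profiled mouse mammary epithelial cells of wildtype (WT) mice and of mice with a germline C/EBPb-/- genotype (KO), in which every cell of the gland and of the rest of the animal lacks the transcription factor C/EBPb. Cells were sorted by FACS on CD24, CD29 and LIN into a CD24+CD29hi gate (CD29hi below) and a CD24hiCD29lo gate (CD29lo below), both LIN-, which gave 4 groups of 2 arrays. The glands formed 2 paired sets, with 10 mice in each group, so an array stands for pooled animals. Neither the age, strain and reproductive stage of the mice nor which stretch of the gene was deleted could be taken from the sources used here. CD29 is the beta-1 integrin chain, and the study asked which pathways depend on C/EBPb in these stem and progenitor fractions.

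Most of these genes are transcribed in G2 and mitosis and are low in cells that do not divide, so that their RNA in a bulk sample follows both how many cells are cycling and how much each cycling cell holds. Kinesins and microtubule binding proteins build the spindle, kinetochore proteins tie it to the centromeres, and the checkpoint kinases hold anaphase until every chromosome is attached. In the mammary gland, cells of the basal and of the luminal layer divide mainly during puberty, the oestrous cycle and pregnancy. In these bulk samples, fewer cycling cells and less RNA per cycling cell cannot be told apart.

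The arrays were near one another in median and background, with 1 exception among the members that matters for every result resting on it. Array medians over all probe sets lay between 5.45 and 5.67 on the log2 scale, the 2 arrays of a group correlated at 0.934 to 0.964 over the tested genes, and the background, set by bacterial control probe sets, lay between 3.835 and 4.41. Arrays of a group were not always closest to each other. The KO CD29lo arrays correlated at 0.934 with each other but at 0.955 (replicate 1) and 0.951 (replicate 2) with WT CD29lo replicate 1. In CD29hi, replicate 1 of KO and of WT correlated at 0.962, the same as the 2 WT arrays. The difference between 3' and 5' control probe sets, a sign of RNA integrity, ranged from 1.35 to 1.62 for Gapdh, and was 1.55 and 1.45 for the wildtype and 1.62 and 1.60 for the knockout CD29hi arrays. By the basal keratin gene Krt5 the gates matched their labels: it read 12.56 and 12.68 in WT CD29hi against 7.13 and 6.75 in WT CD29lo, and 12.63 and 12.39 against 7.66 and 7.40 in KO. The targeted gene Cebpb read 11.95 and 12.25 (CD29hi) and 11.83 and 12.18 (CD29lo) in wildtype, but 8.60 and 9.38 (CD29hi) and 9.23 and 8.89 (CD29lo) in knockout cells, so every KO array lay below every WT array. The exception is WT CD29hi replicate 2, which was the highest of the 8 arrays for 50 of 53 members and lay above replicate 1 for 52 of 53, with a median gap of 1.28. Of all genes, 13.7% were highest in that array. Results that rest on WT CD29hi are therefore given against each of its arrays.

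The promoters of the members show what they share in sequence. The cell cycle genes homology region, a promoter element through which G2 and mitotic genes are held off in resting cells, has the letters TTTGAA, and CCAAT is the element bound by the factor NF-Y. Windows of RefSeq on GRCm38.p6, from 250 bases before to 50 bases after each annotated start, were searched on both strands, and 45 of the 54 members were in the table. TTTGAA was present for 33 of 45 members (73.3%) and for 20.2% of the 27025 genes in the table, and within 50 bases of the start for 30 members (66.7%) and 5.72% of genes. CCAAT was present for 34 members (75.6%) and 41.1% of genes, both motifs together for 28 members (62.2%) and 7.97% of genes, and the motifs overlapped in 1 member window. The stretches below show this pair of motifs upstream of the start in some of the members. Apart from Kif20b, a window was shown only if it held both motifs, so the display shows no link between the motifs and the results. Each match is in capitals (TTCAAA and ATTGG are the same motifs on the other strand). Each sequence is written in the direction of transcription over the 120 bases before the start.
Kif11 (chr19:37376262-37376381, plus strand): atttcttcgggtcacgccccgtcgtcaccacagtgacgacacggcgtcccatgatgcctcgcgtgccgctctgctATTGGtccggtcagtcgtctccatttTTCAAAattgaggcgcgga
Kif22 (chr7:127042421-127042540, minus strand): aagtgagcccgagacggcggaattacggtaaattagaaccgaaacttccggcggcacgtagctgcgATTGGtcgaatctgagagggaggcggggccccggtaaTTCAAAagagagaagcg
Ckap2 (chr8:22185820-22185939, minus strand): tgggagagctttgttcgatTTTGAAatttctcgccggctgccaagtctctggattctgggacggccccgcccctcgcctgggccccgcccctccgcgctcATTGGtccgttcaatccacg
Cdk1 (chr10:69352913-69353032, minus strand): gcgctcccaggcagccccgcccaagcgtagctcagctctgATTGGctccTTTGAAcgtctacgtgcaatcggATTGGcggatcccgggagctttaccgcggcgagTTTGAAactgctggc
Top2a (chr11:99024190-99024309, minus strand): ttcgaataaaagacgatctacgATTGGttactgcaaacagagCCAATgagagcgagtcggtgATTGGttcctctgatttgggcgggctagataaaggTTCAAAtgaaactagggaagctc
Cdc20 (chr4:118437344-118437463, minus strand): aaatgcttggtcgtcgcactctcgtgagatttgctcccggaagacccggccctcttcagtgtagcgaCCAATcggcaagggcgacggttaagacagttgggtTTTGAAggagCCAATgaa
Prc1 (chr7:80294356-80294475, plus strand): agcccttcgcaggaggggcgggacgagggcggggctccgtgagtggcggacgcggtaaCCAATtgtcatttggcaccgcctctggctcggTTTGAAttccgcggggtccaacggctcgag
Kif20b, in which TTTGAA lies after the start and is repeated back to back, is shown as 30 bases around it (chr19:34922353-34922382, plus strand): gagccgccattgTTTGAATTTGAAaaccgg

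In these windows the matched motifs lie in different arrangements, with TTTGAA near the start and CCAAT farther upstream in Kif11, Kif22 and Prc1, a CCAAT on either side of it in Cdc20, and the reverse order in Ckap2. No TTTGAA was found in the windows of Cenph and Birc5, which says only that these letters are not there. The presence of the motif did not sort the members by their difference between genotypes in CD29hi: the median was -2.36 for the 33 with TTTGAA and -2.52 for the 11 without it that had a value.

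Across the arrays, the members were highest in wildtype CD29hi cells and lay near one another in the other 3 groups. Their median log2 value was 6.45 and 7.78 in the WT CD29hi arrays and 4.77 and 4.45 in the KO arrays of that gate, while in CD29lo it was 5.02 and 5.57 for WT and 4.88 and 4.91 for KO. The median of all genes stayed between 6.30 and 6.62 in the same arrays. Both arrays of the group lay above the background for 50 of 53 members in WT CD29hi but for 31 in the knockout cells of that gate, and for 39 and 28 in CD29lo of wildtype and knockout. The corresponding shares of all genes were 70.85%, 71.62%, 72.06% and 67.26%. Both WT CD29hi arrays lay above the other 6 arrays for 37 of 53 members, against 6.27% of all genes.

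**Figure D1:**
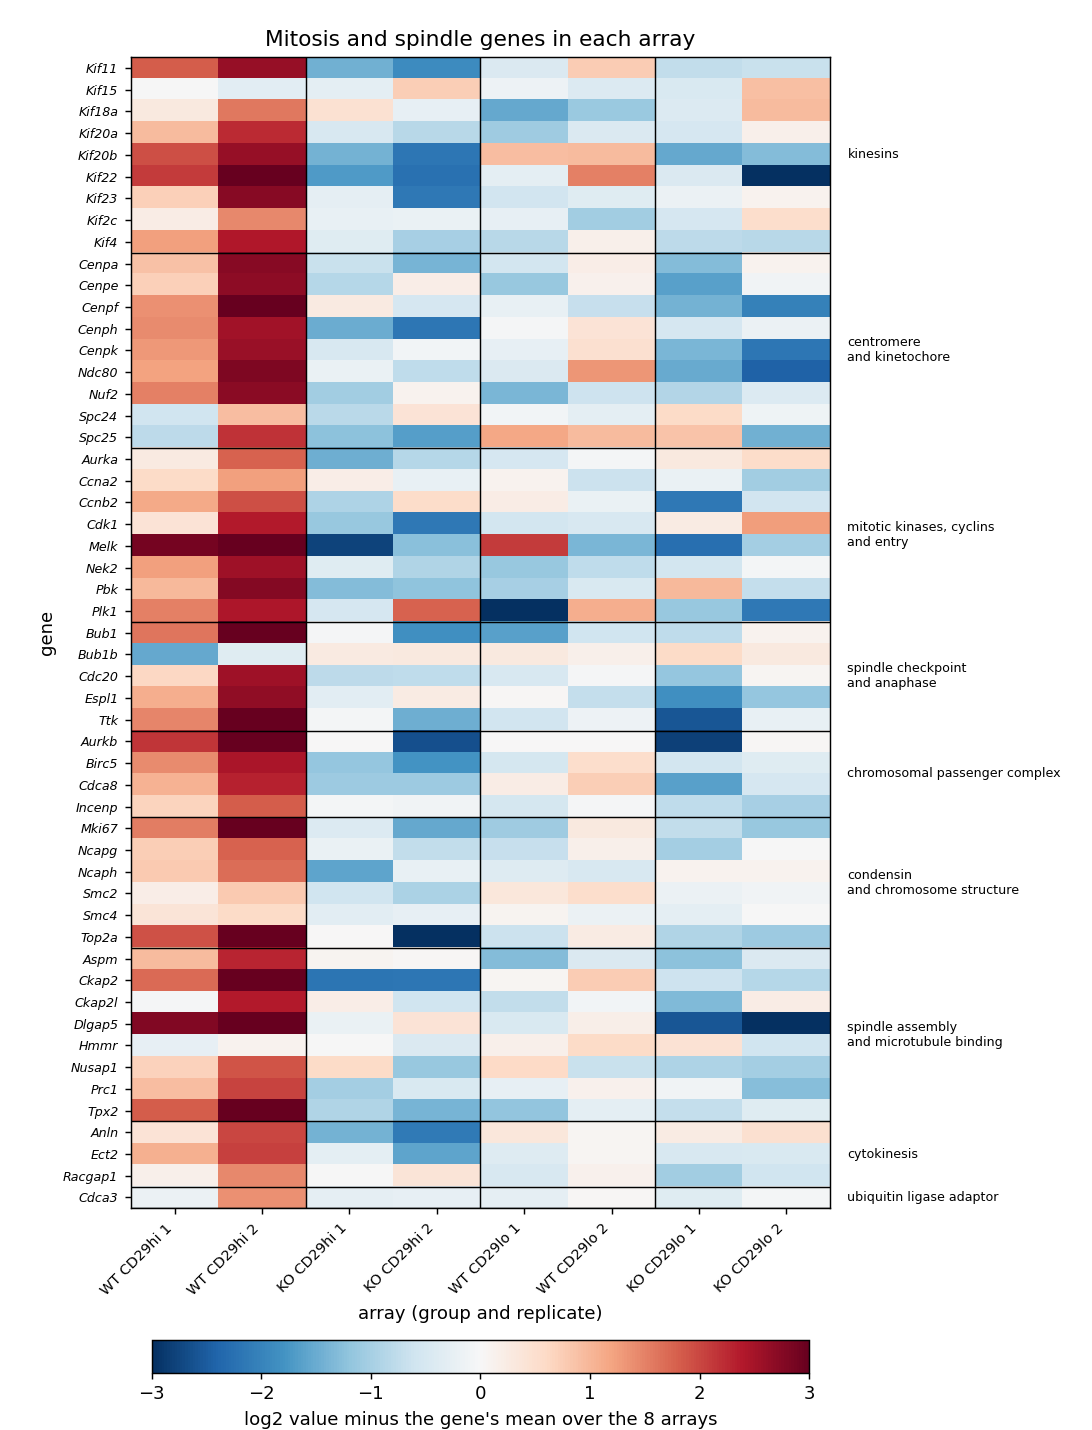
Log2 value of each of the 53 members in each of the 8 arrays, minus the gene's mean over the 8 arrays (colour, limited to -3 to 3), with genes grouped by role and arrays by group and replicate. The WT CD29hi columns are red for most rows, replicate 2 more so than replicate 1, and in Bub1b, Kif15 and Hmmr the mean of the WT CD29hi arrays lies below the gene's mean.

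**Figure D2:**
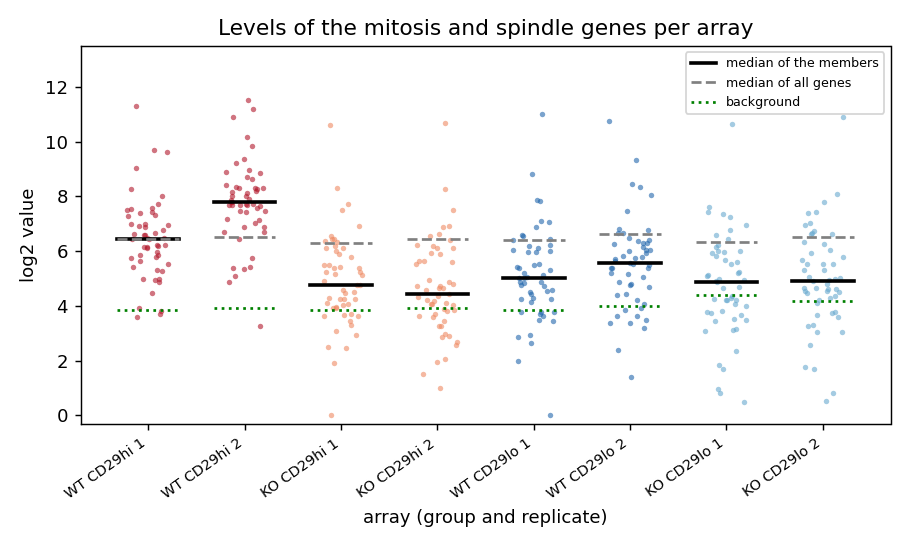
Log2 values of the 53 members in each array (points, 1 per gene), with the median of the members (solid line), the median of all genes (dashed) and the background from bacterial control probe sets (dotted). The medians of the members are 6.45 and 7.78 in WT CD29hi and between 4.45 and 5.57 in the other 6 arrays.

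Knockout against wildtype CD29hi cells asks whether the loss of C/EBPb went with a change in mitotic genes in the basal-marked gate. In this comparison 51 of 53 members were lower in KO, with a median log2 difference of -2.36, while the median over all tested genes was -0.02. Every KO array lay below every WT array for 45 members, against 20.5% of all genes, and the opposite held for 1, Bub1b. By limma, 0 of the 51 tested members passed an adjusted p of 0.05, with the smallest at 0.0714 (Kif20b), and 0.0137% of all genes were called lower. At an unadjusted limma p under 0.05, 39 members were lower and 1 higher, against 4.72% of all genes lower. Dlgap5, Nuf2, Ckap2, Aurkb, Ttk and Kif18a reached the filter on low values only through the WT CD29hi arrays. That these genes were tested thus depended on those arrays being high. The median was -1.67 against WT CD29hi replicate 1 alone, with 48 of 53 below 0, and -3.09 against replicate 2 alone, with 51 below 0. So the direction was the same against either wildtype array while the size depended on which was used.

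Kinesins, the motors that slide, anchor or shorten spindle microtubules, had a median difference of -2.50 in CD29hi, with 8 of 9 below 0. Kif20b, a motor of late cell division, read 6.99 and 7.69 in the wildtype arrays but 3.65 and 2.91 in the knockout arrays, which were both below the background. It was at least 10.9-fold lower in KO, a bound set by the background (limma adjusted p = 0.0714). Kif11, the motor that pushes the spindle poles apart, read 7.56 and 8.34 in WT and 4.29 and 3.84 in KO, a difference of -3.89 ± 0.502 (SE; limma adjusted p = 0.104). In both genes the gap between the groups was several times the gap within either. Kif22, which pushes chromosome arms away from the poles, read 6.89 and 8.98 in WT against 3.10 and 2.56 in KO and was at least 16.4-fold lower (limma adjusted p = 0.284). Kif20a, which carries the chromosomal passenger complex to the midzone, read 7.43 and 8.71 in WT and 6.0 and 5.66 in KO. Kif4, a chromosome-bound motor, stood at 6.44 ± 0.827 (SD, n = 2) in WT and 3.94 ± 0.445 in KO. Kif23, a motor of the central spindle, read 6.14 and 8.15 in WT and 5.15 and 3.28 in KO, so its groups did not overlap although the arrays of each were far apart. Smaller gaps were seen for Kif2c, which depolymerizes microtubule ends (-1.05 ± 0.542), and Kif18a, which limits spindle length (-0.83 ± 0.670), the latter with overlapping groups. Kif15, another motor that helps to keep the poles apart, read 3.59 and 3.28 in WT, below the background, and 3.30 and 4.34 in KO, and these overlapped.

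Centromere and kinetochore genes were all lower in KO CD29hi, 9 of 9, with a median of -2.41, and their groups did not overlap for 8. Cenph, a subunit of the constitutive inner kinetochore, read 6.58 and 7.68 in WT and 3.67 and 2.99 in KO, and was at least 9.42-fold lower (limma adjusted p = 0.104). Its partner Cenpk read 7.58 and 8.86 in WT and 5.80 and 6.19 in KO, a difference of -2.23 ± 0.529 (limma adjusted p = 0.307). Both thus showed the same order, with KO arrays well under the lower of the WT arrays. Cenpa, the histone H3 variant that marks centromeres, differed by -2.84 ± 0.720, and Cenpf, a large kinetochore protein of late G2, by -2.41 ± 0.650, with 6.45 and 8.32 in WT and 5.37 and 4.58 in KO. Of the NDC80 complex, which grips microtubules, Nuf2 read 5.52 and 6.7 in WT and 2.95 and 4.11 in KO, and Ndc80, at 6.19 and 7.78 against 4.77 and 4.22, differed by -2.49 ± 0.738. The other subunits of that complex were less even: Spc25 read 4.94 and 7.89 in WT, 4.50 and 4.07 in KO, and Spc24 differed by -0.36 ± 0.648 with overlapping groups.

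Mitotic kinases, cyclins and entry genes were lower in KO CD29hi for all 8 members with a value (median -2.35). Cdk1, the kinase that drives entry into mitosis, read 6.94 and 8.89 in WT and 5.39 and 4.37 in KO, a difference of -3.04 ± 0.673 (limma adjusted p = 0.305). Nek2, a centrosome kinase, read 5.85 and 7.17 in WT and 4.26 and 3.72 in KO, with -2.52 ± 0.545 (limma adjusted p = 0.305). In both genes the lower WT array still lay well above the higher KO array. Pbk, a mitotic kinase, differed by -3.13 ± 0.715, Aurka, the kinase of spindle poles, with 5.97 and 7.47 in WT and 4.24 and 4.86 in KO, by -2.17 ± 0.542, and the cyclin genes Ccnb2 and Ccna2 by -1.72 ± 0.660 and -0.91 ± 0.465. The genes that were not tested because of their low mean were Melk, a kinase of dividing cells, and Plk1, the polo kinase of mitotic entry. Melk read 5.65 and 6.46 in WT and 0.00 and 1.53 in KO, below the background, and was at least 4.47-fold lower. Plk1 read 4.49 and 5.4 in WT and 2.48 and 4.74 in KO, and these overlapped.

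Of the spindle checkpoint and anaphase genes, 4 of 5 were lower in KO CD29hi. Bub1, the checkpoint kinase at kinetochores, read 6.11 and 7.65 in WT and 4.47 and 2.68 in KO (-3.31 ± 0.777, limma adjusted p = 0.307). Cdc20, the activator of the anaphase-promoting complex, read 7.30 and 9.23 in WT and 5.89 and 5.92 in KO (-2.36 ± 0.649, limma adjusted p = 0.379). The knockout arrays agreed closely for Cdc20, so its spread came from the wildtype pair. Ttk, the kinase that starts checkpoint signalling, was at least 4.52-fold lower, with KO below the background, and Espl1, the separase that cuts cohesin, differed by -1.92 ± 0.630. Bub1b, the checkpoint protein that binds Cdc20, went the other way at its brightest probe set, with 3.69 and 4.86 in WT and 5.5 and 5.52 in KO (1.24 ± 0.471, limma adjusted p = 0.574).

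The chromosomal passenger complex, which corrects wrong attachments and later guides cytokinesis, had all 4 subunits lower in KO CD29hi, each without overlap, with a median of -3.09. Its kinase Aurkb read 5.77 and 6.89 in WT and 3.63 and 1.00 in KO, both below the background, and was at least 5.41-fold lower (limma adjusted p = 0.366). Birc5, its targeting subunit survivin, read 6.67 and 7.72 in WT and 4.11 and 3.46 in KO (-3.41 ± 0.540, limma adjusted p = 0.169). Cdca8, the subunit borealin, read 9.63 and 10.91 in WT and 7.51 and 7.5 in KO (-2.77 ± 0.495, limma adjusted p = 0.251), and the scaffold Incenp differed by -1.32 ± 0.395. Cdca8 is thus a member whose gap lay wholly above the background in both groups.

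Condensin and chromosome structure genes were lower in KO CD29hi for 6 of 6, all without overlap, with a median of -1.93. Mki67, which coats mitotic chromosomes and is the usual marker of cycling cells, read 9.69 and 11.20 in WT and 7.74 and 6.63 in KO (-3.26 ± 0.630, limma adjusted p = 0.264). Top2a, the topoisomerase that untangles sister chromatids, read 8.02 and 9.84 in WT and 6.12 and 2.86 in KO (-4.44 ± 0.999), so its KO arrays were farther from each other than the nearest KO and WT arrays. The condensin core genes had smaller differences, -1.27 ± 0.327 for Smc2 and -0.77 ± 0.162 for Smc4, than the regulatory subunit genes Ncapg at -1.72 ± 0.531 and Ncaph, at least 2.69-fold lower, though the differences between these genes were not tested. Smc4 read 11.30 and 11.51 in WT and 10.60 and 10.68 in KO, with little spread within either group.

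Spindle assembly and microtubule binding genes were lower in KO CD29hi for 8 of 8, with a median of -1.89. Ckap2, a spindle microtubule protein, read 5.80 and 7.45 in WT and 1.92 and 1.94 in KO, and was at least 6.63-fold lower (limma adjusted p = 0.104). Tpx2, which activates Aurka on the spindle, read 6.78 and 8.01 in WT and 4.07 and 3.59 in KO (-3.57 ± 0.550, limma adjusted p = 0.169). In KO, Ckap2 was below the background on both arrays and Tpx2 on 1 of them, while the WT arrays were well above it. Prc1, which crosslinks the central spindle, read 8.27 and 9.36 in WT and 6.32 and 6.88 in KO, a difference of -2.22 ± 0.514. Dlgap5, which bundles spindle fibres, differed by -3.07 ± 0.573, Aspm, a spindle pole protein, by -1.56 ± 0.541, and Nusap1, a microtubule bundler near chromosomes, by -1.56 ± 0.691. Ckap2l and Hmmr had overlapping groups, with Ckap2l at 5.27 and 7.68 in WT and 5.5 and 4.72 in KO, and Hmmr, a spindle pole factor, at -0.16 ± 0.477.

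Among cytokinesis genes Anln, the anillin scaffold of the contractile ring, read 6.6 and 8.2 in wildtype and 4.77 and 4.08 in knockout CD29hi cells (-2.98 ± 0.545, limma adjusted p = 0.251). Ect2, the exchange factor that acts at the cleavage plane, differed by -2.50 ± 0.547, and its partner Racgap1 by -0.61 ± 0.526 with overlapping groups. Cdca3, an adaptor of a ubiquitin ligase that acts at mitotic entry, read 6.21 and 7.74 in WT and 6.10 and 6.12 in KO (-0.87 ± 0.504, limma adjusted p = 0.770), so that its lower WT array was close to both KO arrays.

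**Figure D3:**
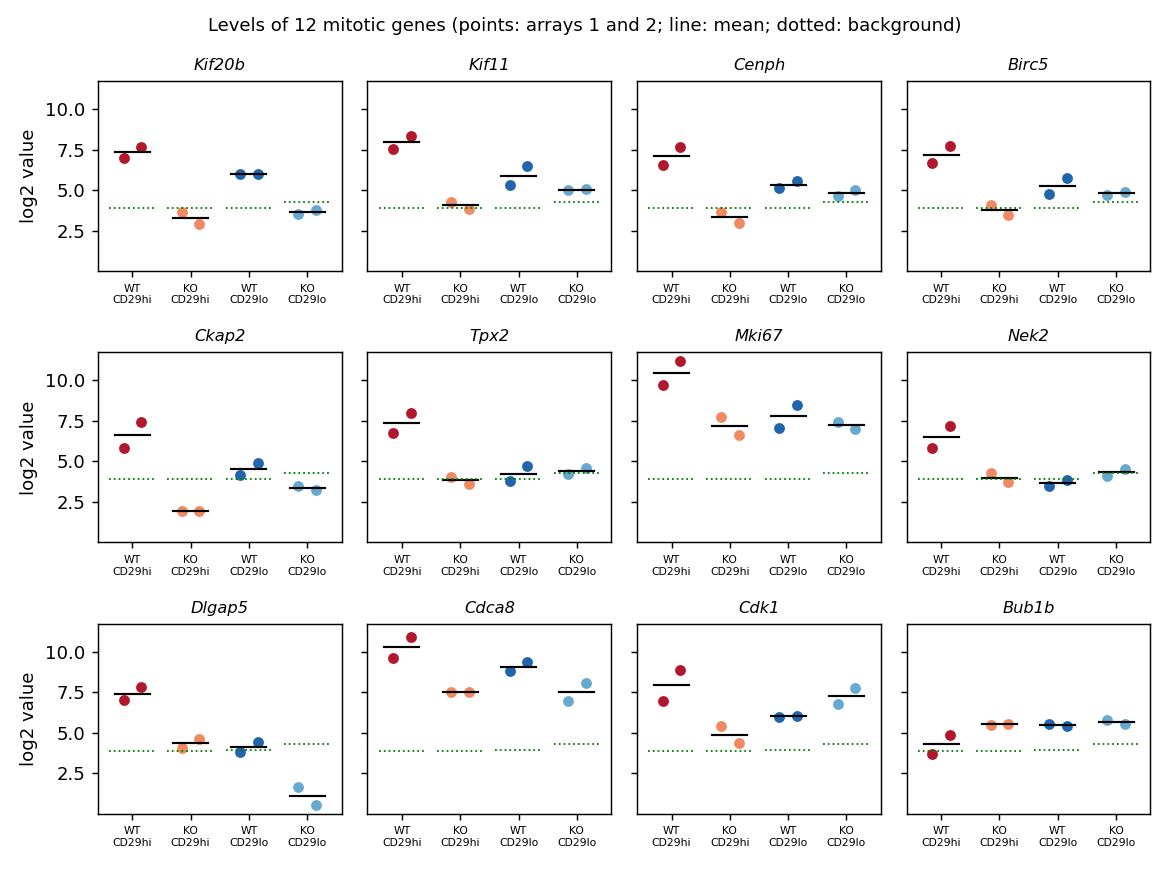
Log2 values of 12 members in the 4 groups (points, arrays 1 and 2 from left to right; line, mean of the 2 arrays; dotted, mean background of the group). In Kif20b, Kif11, Cenph and Ckap2 both wildtype groups lie above the knockout group of the same gate, Cdk1 is lower in KO only in CD29hi, and Bub1b runs the opposite way in CD29hi.

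Other probe sets of the same genes give a second reading, although they share the RNA of the same arrays. There were 69 of them for 36 members, and for 46, from 30 genes, both arrays of at least 1 CD29hi group lay above the background. Of these, 41 were lower in KO CD29hi, with a median of -2.20, and 39 had the sign of the chosen probe set. Bub1b was the main disagreement: its other probe sets differed by -2.14 and -1.63, and the first of them read 5.71 and 6.89 in WT and 4.25 and 4.08 in KO. Hmmr differed by -0.16 at the chosen probe set, of a design that can bind other transcripts too, and by -1.85 and -2.71 at others, and Ccna2 by -0.91 and -2.82. The chosen probe sets of Kif22, Aurkb, Cdc20, Incenp and Kif2c are of that same design. For Top2a the disagreement ran the other way, with -4.44 at the chosen probe set and 0.68 and 0.48 at the others, and Aurka had -2.17 and 0.44. Incenp (-1.32) and Kif2c (-1.05) also had another probe set above 0, at 0.41 and 0.40, and Cdca8 (-2.77), Nusap1 (-1.56), Cenpa (-2.84) and Spc25 (-2.13) had one nearer to 0, at -0.26, -0.03, -0.64 and -0.19. Racgap1 (-0.61), Ncapg (-1.72) and Smc2 (-1.27) had one farther from it, at -3.39, -3.91 and -3.06, with KO below the background there for Racgap1 and Ncapg, so that those sizes are uncertain. The direction for Bub1b, Top2a, Aurka, Incenp and Kif2c, and the size for these other genes among others, thus depended on the probe set.

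**Figure D4:**
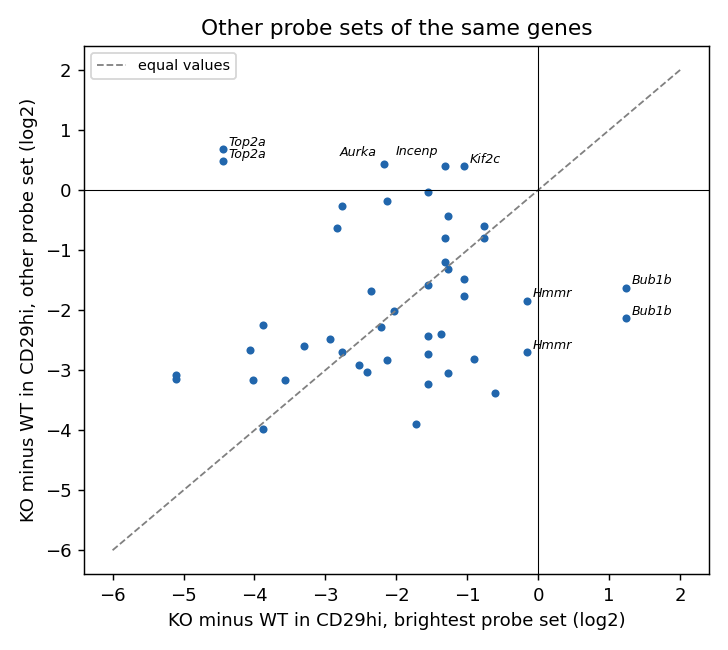
Log2 difference of KO minus WT in CD29hi at the chosen, brightest probe set of a gene (horizontal axis) and at each of 46 other probe sets of 30 genes (vertical axis; dashed line, equal values). Of the 46 points 41 lie below 0 on the vertical axis, and the labelled genes are Bub1b, Hmmr and those with another probe set above 0.

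In CD29lo cells, where luminal markers were high, the genotypes differed less evenly. There, 36 of 53 members were lower in KO and 17 higher, with a median of -0.45 against -0.06 over all tested genes, and of -0.07 without WT CD29lo replicate 2. By limma 0 members passed, with the smallest adjusted p at 0.334, and 0.0137% of all genes were called lower. At an unadjusted limma p under 0.05, 6 members were lower and 1 higher, against 4.26% of all genes lower. The groups did not overlap for 19 members lower in KO, against 18.3% of all genes, and for 6 higher, a direction whose share of all genes was not computed. These counts include values below the background, as for Kif18a, Nek2 and Ncaph among the higher and Espl1 and Dlgap5 among the lower. Dlgap5 read 3.79 and 4.42 in wildtype and 1.68 and 0.54 in knockout cells, all but 1 of them at or under the background (limma adjusted p = 0.334). Kif20b read 6.0 and 6.01 in WT and 3.53 and 3.76 in KO, and was at least 3.29-fold lower (limma adjusted p = 0.334). It was thus above the background in wildtype and below it in both knockout arrays, but another of its probe sets read 3.12 and 4.66 in WT and 4.54 and 4.98 in KO, the opposite order. Cdca8 read 8.81 and 9.34 in WT and 6.96 and 8.09 in KO (-1.55 ± 0.495, limma adjusted p = 0.657), and Cenpk read 6.04 and 6.76 in WT and 4.90 and 4.12 in KO (-1.89 ± 0.529, limma adjusted p = 0.608). Ndc80, at 4.55 and 6.3 in WT and 3.46 and 2.56 in KO, was at least 2.20-fold lower (limma adjusted p = 0.657). Kif18a was the member with the smallest p among those higher in KO, at 1.99 and 2.40 in WT, below the background, and 3.10 and 4.47 in KO (limma adjusted p = 0.730), of which the first was below it too, so no size is given. By role, kinesins had a median of 0.44 in this gate and kinases and cyclins 0.15. The 4 passenger complex subunits had a median of -0.99, each with a lower mean in KO. Of these, Aurkb was below the background in every CD29lo array, so its order is not established. Birc5 had overlapping groups, at 4.74 and 5.78 in WT and 4.71 and 4.91 in KO.

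Averaged over both gates, 49 of 53 members were lower in KO, with a median of -1.26 against -0.05 over all tested genes. Kif20b fell by 3.21 ± 0.319 on the log2 scale and was the 1 member that passed (limma adjusted p = 0.0182), against 0.0617% of all genes called lower. This size includes KO values below the background in both gates. The call was lost without KO CD29hi replicate 2 (limma adjusted p = 0.0818), without WT CD29hi replicate 1 (0.0894) or 2 (0.190), without WT CD29lo replicate 1 (0.0993) or 2 (0.128), without both CD29lo arrays numbered 2 (0.0970), and when its probe sets were averaged (0.289), where the difference was -1.50. Over the 16 alternatives it held in 9, with adjusted p from 0.0183 to 0.289. The next by p were Dlgap5 at -3.03 ± 0.405 (limma adjusted p = 0.0666), Ckap2 at -2.92 ± 0.430 (0.0852), Kif11 at -2.38 ± 0.355 (0.0862), Cdca8 at -2.16 ± 0.350 (0.105) and Cenph at -2.16 ± 0.357 (0.116). These sizes, too, include KO values below the background on both arrays of a gate, in both gates for Ckap2, in CD29lo for Dlgap5 and in CD29hi for Cenph. With the replicate number as a block, Cdca8 passed too (limma adjusted p = 0.0359). At an unadjusted limma p under 0.05, 35 members were lower, against 5.84% of all genes. The tested members include Dlgap5, Nuf2, Ckap2, Aurkb, Ttk and Kif18a, which reached the filter only through the WT CD29hi arrays used in this contrast. All 4 WT arrays lay above all 4 KO arrays for 7 of 53 members, against 1.82% of all genes. These were Kif11, Kif20b, Kif22, Cenph, Cdca8, Smc2 and Ckap2, which between them belong to 5 of the 9 roles. The pattern holds at the chosen probe sets only. Kif11, Kif20b, Kif22, Cdca8 and Smc2 each had at least 1 other probe set without it, and Cenph and Ckap2 had 1 probe set each.

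The difference of the genotype effect between the gates was itself tested. It was below 0 for 50 of 53 members, meaning that KO was lower relative to WT in CD29hi than in CD29lo, with a median of -1.70 against 0.05 over all tested genes. The median was -1.09 without WT CD29hi replicate 2, -2.62 without its replicate 1, and -2.28 without WT CD29lo replicate 2. By limma 0 members passed, with the smallest adjusted p at 0.950, and 0.0% of all genes were called, while 23 members were lower at an unadjusted limma p under 0.05, against 2.46% of all genes. Here, too, Dlgap5, Nuf2, Ckap2, Aurkb, Ttk and Kif18a were tested only because the WT CD29hi arrays were high. Tpx2 had the smallest p, with -3.76 ± 0.778 (limma adjusted p = 0.950): it read 3.79 and 4.69 for wildtype and 4.25 and 4.61 for knockout CD29lo, so that only the CD29hi groups were apart. Cenph followed with -3.28 ± 0.715 and Cdk1 with -4.31 ± 0.951, then Kif11 with -3.01 ± 0.710, Ckap2 with -3.55 ± 0.861 and Nek2 with -3.16 ± 0.771. Below the background on both arrays were Cenph in KO CD29hi, Ckap2 in both KO groups and Nek2 in WT CD29lo, which makes their sizes uncertain. In CD29lo Cdk1 read 6.77 and 7.78 in the knockout, above the 5.96 and 6.05 of wildtype, whereas in CD29hi it was below. Cdk1, Kif23, Aurka, Nek2 and Ncaph had both KO arrays below both WT arrays in CD29hi and above them in CD29lo, 5 of 53 members against 2.55% of all genes, although for Nek2 and Ncaph the WT CD29lo arrays were below the background and have no order with dim KO values. CD29hi and CD29lo of 1 genotype shared no arrays, but their cells may have come from the same glands. The main fit took all arrays as independent, so these p-values make no allowance for shared glands. The replicate number as a block was an alternative only, since the labels do not say that it marks a set. No member's effect was shown to differ between the gates.

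**Figure D5:**
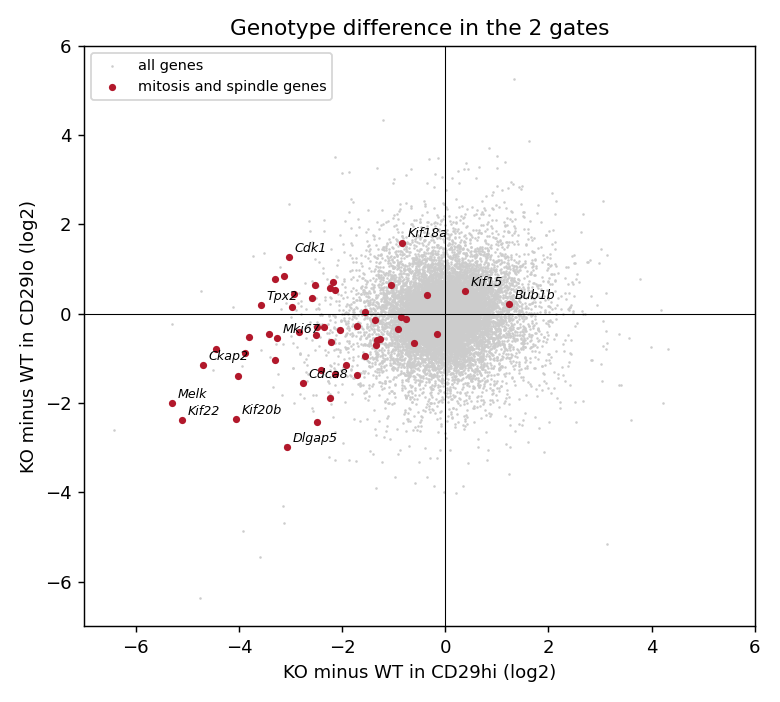
Log2 difference of KO minus WT in CD29hi (horizontal axis) and in CD29lo (vertical axis) for all genes (grey) and for the 53 members (red), with 1 gene outside the axes. The members lie mostly left of 0 with a median of -2.36 on the horizontal axis, and spread around a median of -0.45 on the vertical axis.

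Between the gates of wildtype glands, the members were higher in CD29hi for 50 of 53, with a median of 1.83 against 0.00 over all tested genes. This is the contrast in which most members passed: 10 rose in CD29hi relative to CD29lo, against 3.96% of all genes called higher, and 0 fell. They were Dlgap5, Tpx2, Nek2, Nuf2, Kif20a, Aspm, Bub1, Mki67, Cenpf and Kif11, which come from 6 of the 9 roles. Dlgap5 and Nuf2 reached the filter on low values only through the WT CD29hi arrays, as did Ckap2, Aurkb, Ttk and Kif18a, which were not called. That these genes were tested was thus not independent of this contrast, which also bears on the counts below. This comparison shares the WT CD29hi arrays with that of the genotypes in CD29hi, so the 2 are not independent. Fibroblast markers also differed between the wildtype gates, with a median of -5.2 for CD29hi against CD29lo and 10 of 12 lower in CD29hi. The part of such cells in the mitotic difference between the gates was not tested. At an unadjusted limma p under 0.05, 39 were higher, against 11.1% of all genes, and 1 lower. The groups did not overlap for 45 members higher in CD29hi, against 24.5% of all genes, and for 2 lower, Bub1b and Hmmr. For the lower direction the share of all genes was not computed. All 10 calls were lost without WT CD29hi replicate 2 and without WT CD29lo replicate 1, and 6 members passed without WT CD29lo replicate 2. The median was 1.19 with WT CD29hi replicate 1 alone, with 47 members above 0, and 2.46 with replicate 2 alone, with 50 above 0. The direction therefore held with either array. Without WT CD29hi replicate 1, Kif11 (limma adjusted p = 0.0837) and Bub1 (0.0531) lost their call and the other 8 kept it, so most of the calls rested on replicate 2, the array that stands apart.

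Dlgap5 read 7.01 and 7.79 in WT CD29hi and 3.79 and 4.42 in WT CD29lo, a rise of 3.30 ± 0.573 (limma adjusted p = 0.0110). Tpx2 read 6.78 and 8.01 against 3.79 and 4.69 (3.16 ± 0.550, limma adjusted p = 0.0111). For both genes 1 of the CD29lo arrays was below the background. Mki67 read 9.69 and 11.20 against 7.09 and 8.46 (2.67 ± 0.630, limma adjusted p = 0.0370), and was above the background in every array of the study. Bub1, at 2.88 and 3.92 in CD29lo, was at least 7.78-fold higher in CD29hi (limma adjusted p = 0.0300), Nek2 at least 6.02-fold (0.0166) and Nuf2 at least 4.56-fold (0.0193). In none of these did the arrays of the gates overlap. Kif20a, at 7.43 and 8.71 against 5.41 and 6.04, rose by 2.35 ± 0.506 (limma adjusted p = 0.0259). Aspm, at 7.32 and 8.65 against 5.07 and 5.94, rose by 2.48 ± 0.541 (limma adjusted p = 0.0270), Cenpf by 2.76 ± 0.650 (0.0371) and Kif11 by 2.05 ± 0.502 (0.0427). With the mean of their probe sets, 5 of the 10 lost their call, namely Dlgap5 (limma adjusted p = 0.320), Kif11 (0.146), Nek2 (0.101), Tpx2 (0.0788) and Cenpf (0.0767). Smc2 was at 8.02 ± 0.410 (SD, n = 2) in CD29hi and 7.96 ± 0.141 in CD29lo, and Spc25 was at 4.94 and 7.89 against 6.90 and 6.68, so not every member was higher in CD29hi.

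In the knockout the gates did not order the members in this way. The median of CD29hi against CD29lo was -0.16, with 34 of 53 members below 0, against 0.03 over all tested genes, and it was 0.09 without KO CD29lo replicate 2. Dlgap5 rose by 3.23 ± 0.573 in CD29hi (limma adjusted p = 0.00846), the 1 member called higher, against 7.41% of all genes. It read 4.03 and 4.64 in KO CD29hi and 1.68 and 0.54 in KO CD29lo, all near or below the background, so that the bound on the fold is 1.03 and the call was lost with values raised to at least 4 (limma adjusted p = 0.606). It was also lost without KO CD29hi replicate 2 (0.0580) and with the mean of probe sets (0.478). Cdk1 fell by 2.40 ± 0.673 in CD29hi (limma adjusted p = 0.0497) and Anln fell by 2.14 ± 0.545 (limma adjusted p = 0.0353), the 2 members called lower, against 6.66% of all genes. Anln read 4.77 and 4.08 in KO CD29hi and 6.45 and 6.67 in KO CD29lo, and Cdk1 read 5.39 and 4.37 against 6.77 and 7.78. In wildtype the CD29hi arrays were higher, by 1.00 ± 0.545 for Anln and 1.91 ± 0.673 for Cdk1, which did not pass. The Cdk1 call held in 5 of 18 alternative settings, and the Anln call in 9 of 18, and each was lost without any 1 of the 4 KO arrays and without either WT CD29lo array. The next by p were Cenph, which was below the background in KO CD29hi and at least 1.90-fold lower there (limma adjusted p = 0.0889), Aurka at -1.59 ± 0.542, which passed with the replicate number as a block (limma adjusted p = 0.0480), and Cenpk at 1.49 ± 0.529. The groups did not overlap for 12 members lower in KO CD29hi, against 25.7% of all genes, and for 9 higher, a direction whose share of all genes was not computed.

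Other genes of mitosis, a wider list of 106 genes of the kinetochore, cohesin, the anaphase-promoting complex, centrosomes and spindle of which 104 had a value and 98 were tested, had smaller differences. In KO CD29hi 89 of the 104 were lower, with a median of -0.56, 0 passed in limma, and 30 of 98 were lower at an unadjusted p under 0.05, against 4.72% of all genes. Among those lower, Knl1, the kinetochore scaffold that docks Bub1, read 6.6 and 7.78 in wildtype but 4.59 and 3.79 in knockout CD29hi cells (-3.0 ± 0.534, limma adjusted p = 0.251). Arhgap11a read 8.45 and 9.45 in WT and 6.47 and 5.94 in KO (-2.75 ± 0.439, limma adjusted p = 0.169), and Zwilch, a checkpoint protein, differed by -2.66 ± 0.536 (limma adjusted p = 0.284). Among those higher in KO were Kif14 (at least 1.36-fold, with WT below the background), Cenpb (0.40 ± 0.377) and Pds5b (0.29 ± 0.328), none of which passed. Between the wildtype gates the median was 0.38, and 6 of 98 were called higher in CD29hi, against 3.96% of all genes. These were Knl1, Dsn1, Arhgap11a, Ska2, Bora and Cdc25a. Ska2, a kinetochore microtubule binder, read 7.24 and 7.7 in WT CD29hi and 5.36 and 5.95 in WT CD29lo, and 7.39 and 7.19 against 5.39 and 5.5 in KO, a rise of 1.82 ± 0.370 (limma adjusted p = 0.0205) and of 1.85 ± 0.370 (0.0137). Dsn1, a kinetochore linker, read 7.69 and 8.31 in WT CD29hi against 5.59 and 5.54 in WT CD29lo, and 5.1 and 5.13 against 3.75 and 1.93 in KO, the latter below the background. Bora, an activator of Aurka, and Cdc25a, a phosphatase of cyclin-dependent kinases, had the same order, with a KO against WT difference in CD29hi of -0.30 ± 0.409 and -0.15 ± 0.288. Of these 6 genes, Dsn1, Ska2, Bora and Cdc25a also passed between the KO gates, while Knl1 differed between the gates by 2.88 ± 0.534 in WT (limma adjusted p = 0.0141) and 0.37 ± 0.534 in KO. The anaphase-promoting complex genes Cdc16 (0.98 ± 0.242, limma adjusted p = 0.0320) and Anapc5 (0.91 ± 0.188, 0.0154) also rose in KO CD29hi relative to KO CD29lo, and Anapc13 fell by 1.02 ± 0.196 (0.0112). This made 6 of 98 genes called higher and 1 lower there, against 7.41% and 6.66% of all genes, so such calls were no more frequent than among all genes. Those lower in wildtype CD29hi with the smallest p were Anapc4 (-0.29 ± 0.122), Iqgap3 (below the background in CD29hi) and the cohesin gene Stag2 (-0.59 ± 0.252), none of which passed. Leaving out WT CD29hi replicate 2 ended all 6 wildtype calls, with limma adjusted p from 0.0995 (Knl1) to 0.214 (Dsn1), and leaving out KO CD29hi replicate 1 ended all 7 knockout calls, with 0.0766 (Bora) to 0.161 (Dsn1).

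Regulators of mitotic transcription had differences of either sign between genotypes in CD29hi, with a median of -0.12 over 19 genes. They ran from -2.825 (Foxm1) to 1.455 (E2f7), sizes that are uncertain because Foxm1 in KO and E2f7 in WT were below the background. The groups did not overlap for 7 lower and 4 higher, against 20.5% of all genes lower, while the share of all genes higher was not computed. By limma 0 were called, with 3 lower and 1 higher at an unadjusted p under 0.05, against 4.72% of all genes lower. Foxm1, the activator of G2 and mitotic genes, was under the filter and not tested, and read 5.53 and 5.78 in wildtype and 2.42 and 3.24 in knockout CD29hi cells, and 4.46 and 1.09 against 1.28 and 2.53 in CD29lo. It was thus above the background in both WT CD29hi arrays and in 1 other array. Mybl2, its partner on mitotic promoters, differed by -0.47 ± 0.486 in CD29hi. DNA replication genes, which act before mitosis, were lower in KO CD29hi for 28 of 30, with a median of -0.61, and 0 passed in limma, with 10 lower at an unadjusted p under 0.05, against 4.72% of all genes. Mcm5, a subunit of the replicative helicase, read 9.48 and 9.88 in wildtype and 8.51 and 7.20 in knockout CD29hi cells (-1.83 ± 0.451, limma adjusted p = 0.321).

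Markers of other cell types were read in the same arrays. The 13 basal markers had a median difference of -0.11 between genotypes in CD29hi and the 10 luminal markers with a value -0.02, with 0 called in either list and 0 basal and 2 luminal markers at an unadjusted limma p under 0.05. Luminal progenitor and alveolar markers were lower beside the members: 10 of 10 were lower in KO CD29hi, with a median of -1.79 and 0 called, and 6 had an unadjusted limma p under 0.05, against 4.72% of all genes lower. Their median per array was 5.90 and 7.07 for wildtype and 4.23 and 5.88 for knockout CD29hi arrays, and 10 and 9 against 6 and 8 of them lay above the background. Elf5, the transcription factor of alveolar cells, read 9.14 and 8.17 against 3.99 and 6.94 in the same arrays, and the milk protein gene Csn1s1 read 5.43 and 6.10 against 2.45 and 1.89, below the background. In CD29lo this list had a median of -0.142, with 5 lower and 5 higher in KO. There Elf5 read 10.06 and 9.77 in WT and 10.66 and 9.40 in KO. Csn1s1 read 7.27 and 7.82 against 1.96 and 2.23, so its difference was not confined to CD29hi. The part of luminal progenitor and alveolar cells in the mitotic result was not tested. The 12 fibroblast markers had a median of 5.67 and 7.30 for wildtype and 5.66 and 7.01 for knockout CD29hi arrays, so these groups overlapped while replicate 2 was higher in both, and 10.06 and 11.60 in WT CD29lo against 7.87 and 11.21 in KO CD29lo. Blood cell markers had medians between 2.83 and 4.07 over the 8 arrays, with 3 to 5 of 10 above the background in each, and endothelial markers had overlapping medians of 6.5 and 7.18 for wildtype and 5.41 and 7.55 for knockout CD29hi arrays. Genes of dissociation stress had medians of 11.59 and 11.39 for the former and 11.30 and 11.45 for the latter. Gene by gene, 9 of 13 were higher in KO CD29hi (median 0.205) and 13 of 13 in KO CD29lo (median 0.245). In each gate 4 were higher and 0 lower at an unadjusted limma p under 0.05, and 0 were called. Of 14598 tested genes, 1145 (CD29hi) and 975 (CD29lo) had such a p in either direction. The part of these genes in the mitotic result was not tested.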

How the data were processed

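The data are 1 table of log2 values for 45101 probe sets of Affymetrix mouse arrays, as the authors deposited it. The log2 scale was read from the range of the values (0 to 14.42), and the authors' normalization is not given in the sources used here. Array medians are already near equal. Per the labels' protocols, RNA was extracted with the Arcturus PicoPure kit and amplified with a NuGEN FFPE kit. Amplification of small amounts of RNA can widen the spread of dim genes. Values below the background have no reliable order, and a fold is given only as a bound where both arrays of a group lie below the background. Signs, medians, tests and counts of groups that do not overlap still use such values as they stand. Depth does not apply to arrays: their number, 2 per group, limits the precision.

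The platform annotation, of 2016, gives 1 gene for 34958 probe sets, several for 932 and none for 9211. A gene was tested where the mean of its probe set over the arrays reached 3.51, the 25th percentile over all probe sets, as 14598 genes did. The background of an array is the 95th percentile of its 27 Bacillus control probe sets. A group with both arrays at or below it has only a bound, so the brighter group's mean is set against the higher of the background and the dim probe's own value, array by array. Comparisons used limma 3.58.1 under R 4.3.3 (lmFit on 4 groups, eBayes with a trend, 4 residual and 4.31 prior degrees of freedom), with 2-sided p-values adjusted by Benjamini-Hochberg over all genes tested, at 0.05. Log2 differences carry their SE, and group means their SD (n = 2). P-values measure the spread between pooled samples. The fit was tested on simulated data. Figures used matplotlib 3.10.9 in Python 3.11.15.

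The members and gene lists were chosen with earlier results of these data known. Array values are given for the 6 members with the smallest p in each contrast, for the brightest member and that with the smallest p in CD29hi of each role, for each called member and for those with a sign opposite to the median. Of other mitotic genes, those called and the 3 with the smallest p in each direction are named. Other genes are examples, chosen after their values were seen. The alternatives tried were a quantile normalization of the arrays, the fit with no filter or one at the 50th percentile, the mean of probe sets, values raised to at least 4, no trend, array weights, the arrays compared alone, the replicate number as a block, both CD29lo arrays numbered 2 left out, and each array left out.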

Additional observations from a re-analysis of the deposited data

Results flagged for a closer look

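In 5 members the knockout arrays lay wholly below the wildtype arrays in CD29hi and wholly above them in CD29lo, against 2.55% of all genes. For Nek2 and Ncaph the wildtype CD29lo arrays were below the background, as was 1 of the knockout arrays, so that their order there is not established, and Ncaph was also below it in knockout CD29hi cells. The difference between the genotype effects of the gates was -4.31 ± 0.951 (SE) for Cdk1 (limma adjusted p = 0.950), -3.37 ± 1.09 for Kif23 (0.961), -2.89 ± 0.766 for Aurka (0.961), -3.16 ± 0.771 for Nek2 (0.961) and -2.66 ± 0.817 for Ncaph (0.961). None of these passed the test of the difference. Aurka had another probe set with a genotype difference of 0.44 in CD29hi and -0.81 in CD29lo, the opposite order.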

How the results depend on the processing

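No result changed direction past its test. Under quantile normalization, no filter, the mean of probe sets, values raised to at least 4 and array weights, the median difference of the members in CD29hi stayed between -2.36 and -1.92. Leaving out 1 array at a time gave -3.09 to -1.67 there, -2.62 to -1.09 for the difference between gates, and 1.19 to 2.46 for CD29hi against CD29lo in wildtype. The count of members called in KO against WT CD29hi was 1 with array weights (Kif20b). Averaged over both gates it was 0 with the filter at the 50th percentile, where Kif20b is not tested, 0 with the mean of probe sets, 0 with both CD29lo arrays numbered 2 left out, and 0 to 1 with 1 array left out. Between wildtype gates it was 5 with the filter at the 50th percentile, which tests 23 members, 4 without a trend, and 0 to 11 with 1 array left out. Between knockout gates it was 1 with the mean of probe sets, 1 with values raised to at least 4, 1 without a trend, 1 with both CD29lo arrays numbered 2 left out, and 0 to 3 with 1 array left out. Beyond the smaller number of genes tested, the cause was not tested. The labels do not say that a replicate number marks a paired set, and same-numbered deviations correlated at 0.006 to 0.321 over the 6 pairs of groups. With the replicate block 2 members were called averaged over both gates (Kif20b and Cdca8), 12 between wildtype gates and 4 between knockout gates, and 0 in either gate or for the difference between gates. Fitting the arrays compared alone was not run for the 2 contrasts that use all 8 arrays. Where an array was left out, the lone array of its group was taken to have the spread of the rest. Dim knockout values leave only a bound on the fold in CD29hi for Kif20b, Kif22, Cenph, Ckap2, Aurkb, Ttk, Ncaph and Melk, and in CD29lo for Kif20b, Kif22, Ndc80, Cenpf and Ckap2, with no fold there for Dlgap5, Espl1, Kif4, Plk1 and Melk.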
